A study of Mus musculus with 6 samples.

Results

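The epidermal growth factor (EGF) family is described here through 10 genes, 7 ligands (Areg, Ereg, Hbegf, Tgfa, Epgn, Btc and Egf) and 3 receptors (Egfr, Erbb2 and Erbb3). They were taken as all probes that were not controls and whose gene name on the array is one of these symbols, which gave 12 probes of 55681 and, after filtering and choosing 1 probe per gene, 10 of 24756 features. Egfr had 3 probes and each other gene had 1. The tumor group holds 3 biopsies of skin tumors, labelled as cutaneous squamous cell carcinoma, from female mice of the inbred strain FVB/N. DMBA, a mutagenic hydrocarbon, was put on the skin first, and PMA (also called TPA), an activator of protein kinase C, was then applied over 6 weeks. Another DMBA dose followed in week 8, and PMA was resumed for 14 weeks. The healthy skin group holds 3 biopsies of acetone-treated skin, acetone being the solvent, from female mice of the same strain. The labels give the age of no animal and the time of harvest of no single biopsy. Only the tumor group received DMBA and PMA, so that effects of the tumor and of the painting cannot be told apart, and whether biopsies of a group came from different mice is not stated, so the p-values below reflect only how far these samples differ among themselves, which may be technical.

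As background, the ligands are made as membrane-anchored precursors that metalloproteases cut from the cell surface. The released growth factor binds the EGF receptor, which pairs with itself or with a relative such as ErbB2 or ErbB3, and its kinase feeds the Ras to ERK cascade and other arms. Keratinocytes make several of these ligands themselves, and the receptor is known in epidermis for driving proliferation and for holding back differentiation. In the DMBA and TPA protocol the initiating mutation usually falls in a Ras gene, downstream of the receptor.

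Total RNA was labelled with Cy3 and hybridized to 1-colour Agilent arrays. Every value below is a log2 signal relative to the 75th percentile of its own array, so 0 stands for the 75th percentile and each unit for a doubling. Probes differ in brightness for the same amount of RNA, so levels are not compared between genes. Sums over a marker list weight bright probes most and are given only as ranges in each group. Between 48.7% and 65.4% of an array's spots, controls left out, were well above background. Tumor 1 stood apart by a median background of 85 intensity units (23 to 26 elsewhere) and healthy skin 3 by a low 75th percentile of 242 intensity units (525 to 897 elsewhere). Markers of basal keratinocytes were measured in both groups (7 of 7 genes, none past the test), while 4 of 5 neutrophil markers were higher in tumors. Lower in tumors were 8 of 8 skeletal muscle, 5 of 6 sebaceous gland, 4 of 5 adipocyte, 4 of 6 Schwann cell, 3 of 6 suprabasal keratinocyte and 2 of 4 T cell markers. In each of the lists of hair follicle, melanocyte, fibroblast, endothelial, macrophage and mast cell markers at most 1 gene was called higher and at most 1 lower.

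Of the 7 ligands, 4 rose in tumors, 2 fell and 1 did not pass the test. None of the 3 receptors passed it. The test was limma over all 24756 features with a Benjamini-Hochberg adjusted p under 0.05, and it called 10.3% of all features higher and 15.6% lower, or 25.9% in either direction. The median log2 fold change of the ligands was 2.56 and that of the receptors -0.36, beside -0.16 over all features. In 7 of the 10 genes the groups did not overlap, 4 higher and 3 lower in tumors, beside 49.7% of all features (20.7% higher and 29% lower). All 10 genes passed the filter on dim probes. On 9 of them every array was well above background. The exception was Egf, which was well above background on 2 of 3 tumor arrays and on 3 of 3 healthy skin arrays.

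**Figure D1:**
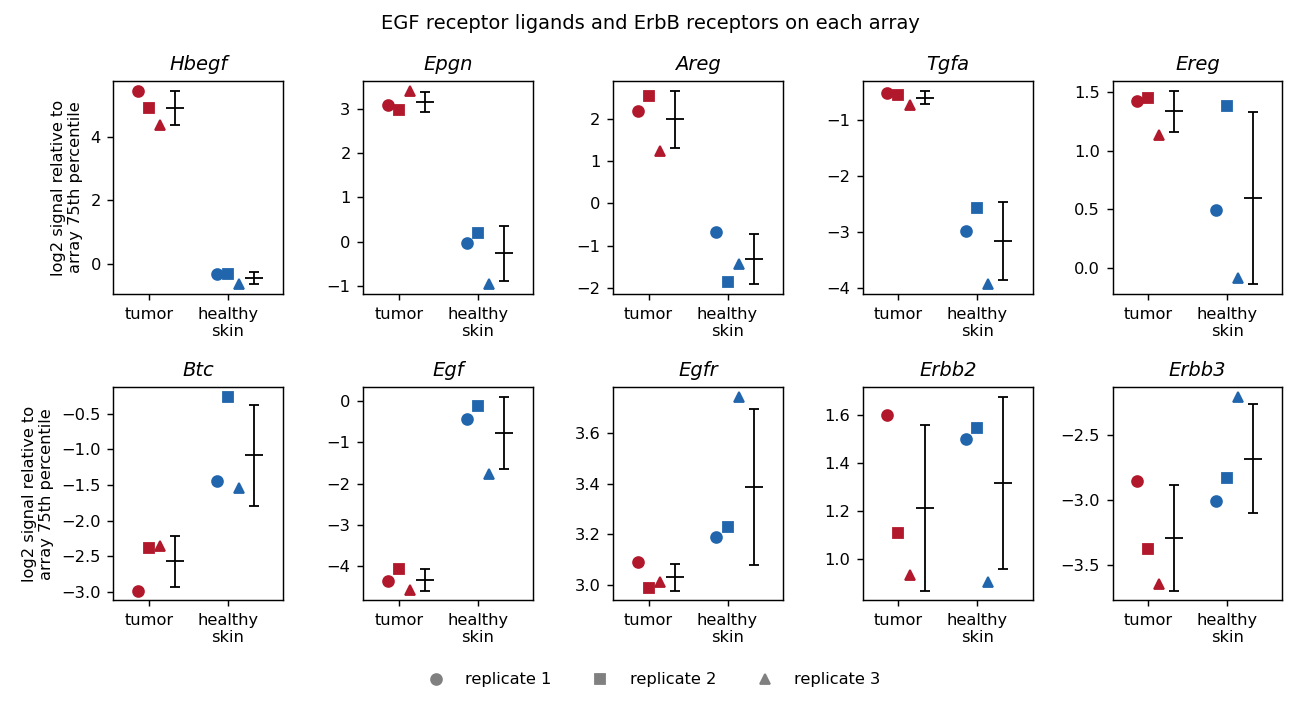
Log2 signal relative to the array's 75th percentile (vertical axis, a scale of its own in each panel) for 10 genes in 3 tumors (red, left) and 3 healthy skin biopsies (blue, right). Points are single arrays, with the replicate number shown by shape, and black bars give the mean ± SD. The 3 tumors lie above all healthy skin arrays for Hbegf, Epgn, Areg and Tgfa and below them for Btc, Egf and Egfr.

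The probe positions, in the array's mm9 annotation, place 4 of the ligands side by side. Their probes lie on chromosome 5 within 323 kb, in the order Epgn (positions 91464119 to 91464178), Ereg (91522553 to 91522612), Areg (91570090 to 91570149) and Btc (91786948 to 91787007). The first 3 are read from the plus strand and Btc from the minus strand. Tgfa has its probe on chromosome 6 (86224838 to 86224897) and Egf its probe on chromosome 3 (129380826 to 129380885). Among the receptors, the Erbb2 probe is on chromosome 11 (98298103 to 98298162) and the Erbb3 probe on chromosome 10 (128006424 to 128006483). The annotation assigns each probe to an mRNA of its gene and does not say whether it lies in coding sequence or in a UTR.

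Promoter sequences of Areg, Epgn and Btc on chromosome 5 are shown because these genes differed in direction. The 250 bases before the gene start (RefSeq, GRCm38.p6) were searched for TGANTCA, the core of the TPA response element bound by AP-1, and for TGACGTCA, the cAMP response element. Both motifs were searched on both strands, no stretch can match both in full since they differ in length, and matches are in capitals.
Areg, chr5:91139349-91139598, plus strand: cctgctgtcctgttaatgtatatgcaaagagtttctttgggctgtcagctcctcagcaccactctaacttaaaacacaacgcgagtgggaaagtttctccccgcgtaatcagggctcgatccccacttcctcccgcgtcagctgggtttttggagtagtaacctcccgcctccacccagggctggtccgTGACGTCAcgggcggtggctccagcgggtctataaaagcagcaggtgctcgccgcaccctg
Epgn, chr5:91027267-91027516, plus strand: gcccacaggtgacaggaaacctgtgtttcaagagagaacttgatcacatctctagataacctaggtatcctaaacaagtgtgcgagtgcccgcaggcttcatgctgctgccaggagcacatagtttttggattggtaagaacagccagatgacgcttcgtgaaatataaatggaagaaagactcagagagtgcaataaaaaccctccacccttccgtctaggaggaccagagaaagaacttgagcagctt
Btc, chr5:91402995-91403244, minus strand: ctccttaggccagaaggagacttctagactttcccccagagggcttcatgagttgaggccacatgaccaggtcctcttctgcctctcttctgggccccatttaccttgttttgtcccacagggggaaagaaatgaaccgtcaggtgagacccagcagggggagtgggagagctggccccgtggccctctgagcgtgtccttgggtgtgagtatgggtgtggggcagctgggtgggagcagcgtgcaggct
The Areg window held 1 TGACGTCA, and neither motif was in the windows printed for Epgn and Btc. The table matched 7 of the 10 genes with 8 windows (not Ereg, Hbegf and Erbb3), and apart from that of Areg none held either motif. Among all 32851 windows of this length, 6.75% held TGANTCA and 1.55% held TGACGTCA. A match describes the letters only.

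Hbegf, heparin-binding EGF-like growth factor, a ligand that wounded keratinocytes release, differed most. Its log2 signal was 5.46, 4.92 and 4.38 in the tumors, against -0.34, -0.32 and -0.65 in healthy skin. The groups lay far apart and the tumors varied more than the healthy skin arrays (4.92 ± 0.54 against -0.44 ± 0.19, SD, n = 3 each). Its probe lies on chromosome 18 (36664738 to 36664797 in mm9). The log2 fold change was 5.36 ± 0.34 SE, or 40.9-fold higher in tumors (limma adjusted p = 0.000294).

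Epgn, epithelial mitogen or epigen, had a log2 signal of 3.08, 2.98 and 3.41 in the tumors, against -0.03, 0.20 and -0.97 in healthy skin. The tumors were close to each other, and healthy skin 3 was the lowest array. The level was 10.72-fold higher in tumors (log2 fold change 3.42 ± 0.37 SE, limma adjusted p = 0.00135).

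Areg, amphiregulin, a ligand that keratinocytes secrete in culture and in psoriatic skin, had a log2 signal of 2.18, 2.55 and 1.23 in the tumors, against -0.68, -1.86 and -1.45 in healthy skin. Tumor 3 was the lowest tumor, and still above every healthy skin array. The level was 9.97-fold higher in tumors (log2 fold change 3.32 ± 0.45 SE, limma adjusted p = 0.00306).

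Tgfa, transforming growth factor alpha, the classical autocrine ligand of keratinocytes, was printed on 10 spots per array. Its log2 signal was -0.52, -0.56 and -0.75 in the tumors, against -2.99, -2.58 and -3.94 in healthy skin. The tumors agreed within 0.12 (SD), while the healthy skin arrays spread by 0.70 (SD), with healthy skin 3 the lowest. The SD between the 10 spots of 1 array was 0.07 to 0.09 on tumor arrays and 0.11 to 0.25 on healthy skin arrays, smaller than the SD between healthy skin arrays. The level was 5.9-fold higher in tumors (log2 fold change 2.56 ± 0.39 SE, limma adjusted p = 0.00437). On the healthy skin 3 array 7 of its 10 spots were well above background, so this fold includes a signal near background. With normexp background correction the log2 fold change was 1.52 (limma adjusted p = 0.00281).

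These 4 ligands passed the test in each of the 22 alternative settings, including each of the 6 fits without 1 array. The row on the slide was inferred from the suffix of each array's barcode. Both settings that use this row are weaker checks, since healthy skin 3 is then the only healthy array that informs the difference. Healthy skin 3 is then assumed to vary like the tumors or the other arrays. Over all alternatives the log2 fold changes ran from 4.98 to 6.25 for Hbegf, from 3.05 to 4.31 for Epgn, from 2.98 to 4.21 for Areg and from 1.52 to 3.45 for Tgfa. The 4 ligands also passed treat, limma's test for changes beyond 1 log2 unit, with adjusted p = 0.000704 for Hbegf, 0.00601 for Epgn, 0.0158 for Areg and 0.0382 for Tgfa. Of 5 measured neutrophil markers, S100a8, S100a9, Cxcr2 and Retnlg were higher in tumors. Csf3r, the brightest of them in healthy skin, lay the other way, with a log2 signal of 7.09, 7.09 and 7.07 in the tumors, against 7.59, 7.93 and 8.02 in healthy skin, and did not pass the test (limma adjusted p = 0.0711). The summed linear signal of the 5, in units of the array's 75th percentile, was 501 to 758 in tumors and 205 to 264 in healthy skin. S100a9 was the brightest of the 5 in the tumors, with a log2 signal of 7.99, 8.24 and 8.5, against 3.18, 3.87 and 0.63 in healthy skin. Which cells of the biopsies expressed these markers was not tested. The part of neutrophils in the rise of the ligands was not tested either.

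**Figure D2:**
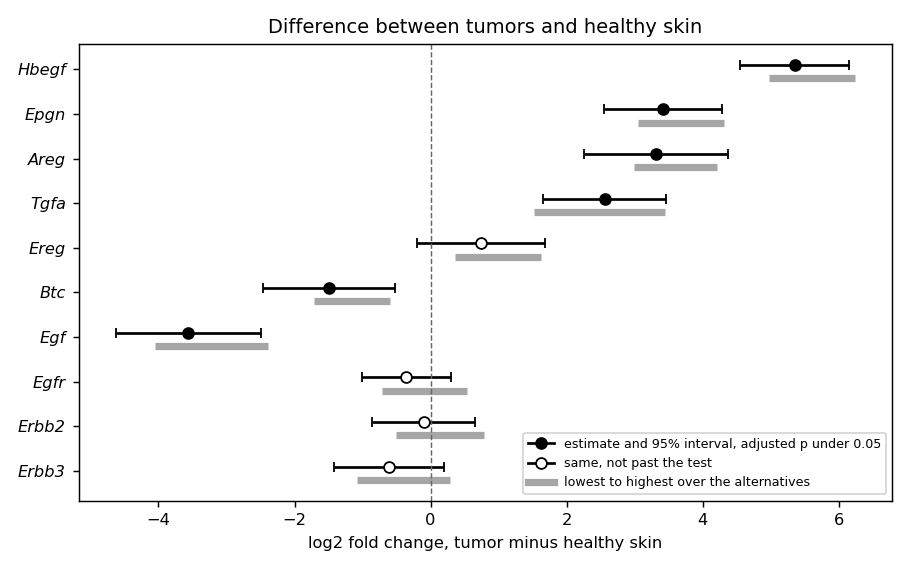
Log2 fold change, tumor minus healthy skin (horizontal axis), for 10 genes. Circles with bars are estimates with 95% confidence intervals, filled where the adjusted p is under 0.05, and grey bars run from the lowest to the highest value over the alternative settings. Hbegf, Epgn, Areg and Tgfa lie right of 0 in every setting, Btc and Egf left of 0, and the grey bars of the 3 receptors cross 0.

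Ereg, epiregulin, lies between Epgn and Areg on chromosome 5 and did not pass the test. Its log2 signal was 1.42, 1.45 and 1.13 in the tumors, against 0.49, 1.38 and -0.08 in healthy skin. The groups overlapped, since healthy skin 2 was above tumor 3. The log2 fold change was 0.74 with a 95% confidence interval of -0.20 to 1.68 (limma adjusted p = 0.208), and it was called in 0 of 22 alternatives, with adjusted p from 0.0501 upward.

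Btc, betacellulin, which can bind both EGFR and ErbB4, fell. Its log2 signal was -2.98, -2.39 and -2.35 in the tumors, against -1.45, -0.26 and -1.54 in healthy skin. The groups did not overlap, and healthy skin 2 stood apart from the other healthy skin arrays. Tumors held 2.81-fold less (log2 fold change -1.49 ± 0.42 SE, limma adjusted p = 0.0371). The call is weak: it held in 8 of 22 alternatives and was lost without healthy skin 1, healthy skin 2, tumor 1, tumor 2 or tumor 3, with adjusted p of 0.0554, 0.0903, 0.104, 0.077 and 0.0657. The log2 fold change stayed negative in each alternative, from -1.72 to -0.60.

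In gene order on chromosome 5, the measured protein-coding genes were Mthfd2l, Epgn, Ereg, Areg and Btc. Mthfd2l, a mitochondrial folate enzyme next to the ligands, had a log2 signal of 1.09, 0.88 and 0.41 in the tumors, against -0.65, -0.62 and -0.68 in healthy skin (log2 fold change 1.44 ± 0.29 SE, limma adjusted p = 0.0117). Neighbouring genes of this cluster thus included 3 that rose, 1 that did not pass the test and 1 that fell.

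**Figure D3:**
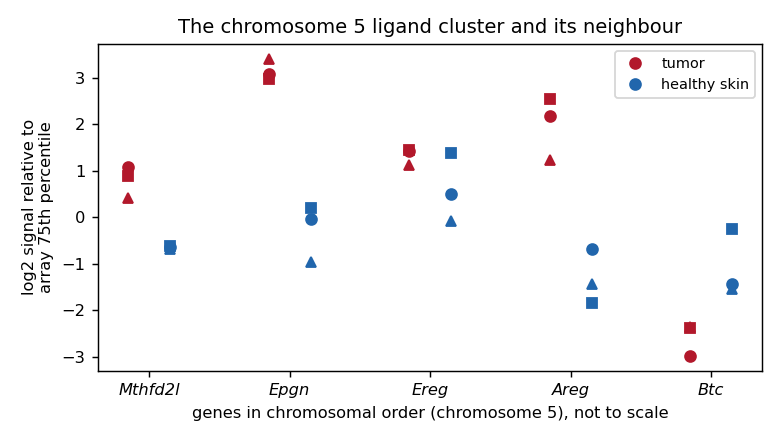
Log2 signal relative to the array's 75th percentile (vertical axis) for 5 protein-coding genes in their order on chromosome 5 (horizontal axis, not to scale), with tumors in red on the left and healthy skin in blue on the right of each gene; shapes mark the replicate number. The tumors lie above healthy skin for Mthfd2l, Epgn and Areg, the groups overlap for Ereg, and the tumors lie below for Btc.

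Egf, epidermal growth factor itself, was the ligand that fell most. Its log2 signal was -4.36, -4.06 and -4.58 in the tumors, against -0.44, -0.11 and -1.77 in healthy skin. The lowest healthy skin array was still well above every tumor. Tumors held 11.8-fold less (log2 fold change -3.56 ± 0.46 SE, limma adjusted p = 0.00246). On the tumor 1 array only 2 of its 10 spots were well above background, so this fold includes signals near background. With normexp background correction the log2 fold change was -2.39 (adjusted p = 0.00173), and with spike-in scaling it was -2.67 and no longer called (adjusted p = 0.0522). It was called in 20 of the 21 alternatives that kept the probe.

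The genes whose pattern over the 6 arrays was closest to that of Egf, measured as the root mean square difference between log2 values after each gene's mean was removed, were Acta1 (0.18), Mypn (0.20) and Pdlim3 (0.24). Mypn was well above background on 1 of 3 tumor arrays. Acta1 encodes skeletal muscle actin, Mypn the sarcomere protein myopalladin and Pdlim3 a Z-disc LIM protein. Acta1 had a log2 signal of 3.78, 4.11 and 3.28 in the tumors, against 7.93, 8.13 and 6.15 in healthy skin. In Egf and in each of these 3 genes healthy skin 3 was the lowest healthy skin array, which the choice by likeness favours. It was also the lowest for Hbegf, Epgn, Tgfa, Ereg, Btc and Erbb2, but not for Areg, Egfr and Erbb3. In the skeletal muscle list it was the lowest for some markers and not for others. All 8 skeletal muscle markers were lower in tumors, by a median of -4.46 on the log2 scale, and their summed linear signal was 22.7 to 53.7 in tumors and 738 to 1237 in healthy skin. The 6 sebaceous gland markers summed to 5.04 to 14.5 in tumors and 37.7 to 84.5 in healthy skin. Adipocyte markers (median log2 fold change -4.61), Schwann cell markers (-2.58), suprabasal keratinocyte markers (-2.30) and T cell markers (-1.97) were also lower in part. Their summed signals were 64.3 to 194 in tumors and 52.8 to 197 in healthy skin for adipocyte, 8.79 to 22.1 in tumors and 11.6 to 22.2 in healthy skin for Schwann cell, 121 to 405 in tumors and 1120 to 1434 in healthy skin for suprabasal keratinocyte, and 8.0 to 11.6 in tumors and 10.3 to 29.5 in healthy skin for T cell markers. Their part in the fall of Egf and Btc was not tested, and in bulk tissue fewer cells of a type and less RNA per cell cannot be told apart.

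By the same measure the genes closest to Hbegf were Dsc2 (0.27), a desmosomal cadherin, Map7d2 (0.36), a microtubule-associated protein, and Krt16 (0.37), a keratin of activated epidermis. Krt16 had a log2 signal of 8.90, 8.58 and 8.62 in the tumors, against 2.78, 3.50 and 3.36 in healthy skin. The group difference makes up most of such a pattern, and likeness over 6 arrays is a description only.

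**Figure D4:**
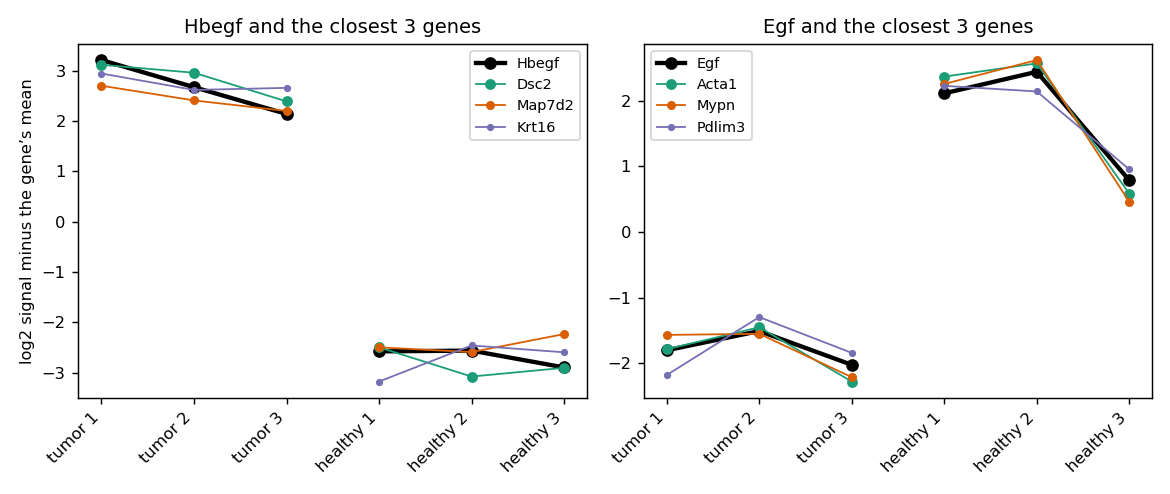
Log2 signal minus the gene's own mean (vertical axis) on each array (horizontal axis) for Hbegf with its 3 closest genes (left) and Egf with its 3 closest genes (right); lines join arrays of 1 group to guide the eye. In the right panel Egf, Acta1, Mypn and Pdlim3 are all lowest in the tumors, and among healthy skin arrays lowest in healthy skin 3.

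No difference between the groups passed the test for the receptors. Egfr was read by 3 probes on chromosome 11. The probe with the highest mean, annotated to transcript variant 1 (16813815 to 16813874) and printed on 10 spots, stood for the gene. Its log2 signal was 3.09, 2.99 and 3.01 in the tumors, against 3.19, 3.23 and 3.74 in healthy skin. The groups did not overlap, with healthy skin 3 apart from the other arrays, but the difference did not pass the test (log2 fold change -0.36, 95% confidence interval -1.01 to 0.29, limma adjusted p = 0.368). The interval leaves room for a fall of 1 log2 unit and for a small rise.

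Another pair of Egfr probes is annotated to transcript variant 2. Whether variant 1 also holds their sequences was not checked, so neither is read here as a measure of variant 2 alone. As background, shortened Egfr transcripts that end before the membrane and kinase domains are known in the mouse. The upstream one of the pair (16783556 to 16783615) lies 30.3 kb and the other (16787172 to 16787231) 26.6 kb before the variant 1 probe. Their sequences, from the array files (mm9, plus strand), are shown because they tell the probes apart, with a closing stop codon in capitals.
Egfr variant 2, upstream probe: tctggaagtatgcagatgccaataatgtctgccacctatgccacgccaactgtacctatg
Egfr variant 2, end probe: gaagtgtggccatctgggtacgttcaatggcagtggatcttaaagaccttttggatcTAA
Read from its first base, the end probe has an open frame that closes with a stop codon at its last 3 bases.

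The upstream variant 2 probe had a log2 signal of 0.48, -0.18 and 0.16 in the tumors, against 0.21, 0.02 and -0.30 in healthy skin, and the groups overlapped (log2 fold change 0.18 ± 0.31 SE, limma adjusted p = 0.691 with every probe fitted by itself). The end probe had 0.43, -0.36 and 0.29 in the tumors, against -0.79, -0.57 and -0.95 in healthy skin. Here the tumors all lay above healthy skin, but the difference did not pass the test (log2 fold change 0.89 ± 0.32 SE, limma adjusted p = 0.0756 with every probe fitted by itself). Within each array, the log2 signal of the end probe minus that of the variant 1 probe was -2.66, -3.35 and -2.73 in the tumors, against -3.98, -3.80 and -4.69 in healthy skin. This within-array difference was 1.24 higher in tumors (two-sided exact permutation p = 0.1, n = 3 each, the smallest p that 3 against 3 arrays allow). All tumors lay above healthy skin for the end probe and below it for the variant 1 probe. The difference thus had to separate the groups, and its p adds nothing to the separate probes. For the upstream probe the within-array difference was 0.53 higher (two-sided exact permutation p = 0.2, n = 3 each). A ratio within an array shows unequal change of 2 probes only, and the comparison was chosen with the values in view.

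**Figure D5:**
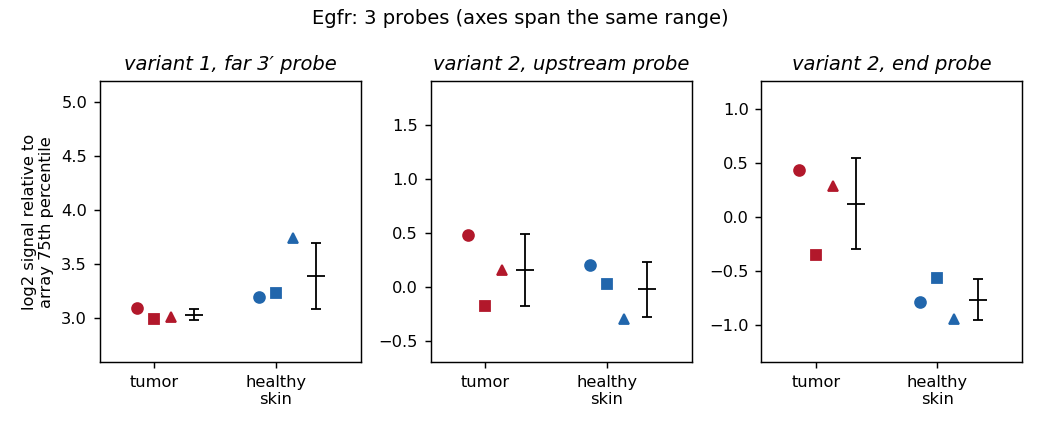
Log2 signal relative to the array's 75th percentile (vertical axis, each panel spanning the same range) for the 3 Egfr probes in tumors (red, left) and healthy skin (blue, right). Points are arrays, shapes the replicate number, and black bars the mean ± SD. Tumors lie below healthy skin for the variant 1 probe, overlap for the upstream variant 2 probe and lie above for the end probe, and none of the 3 differences passed the test.

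Erbb2, the receptor without a known ligand of its own that pairs with the others, had a log2 signal of 1.60, 1.11 and 0.93 in the tumors, against 1.50, 1.54 and 0.90 in healthy skin. The groups overlapped. The log2 fold change was -0.10 with a 95% confidence interval of -0.86 to 0.65 (limma adjusted p = 0.832). The 10 spots of 1 array had an SD of at most 0.09, against an SD between arrays of 0.35 in tumors and 0.36 in healthy skin. Erbb3, a neuregulin receptor with little kinase activity of its own, had a log2 signal of -2.85, -3.37 and -3.64 in the tumors, against -3.002, -2.83 and -2.21 in healthy skin. The groups overlapped at tumor 1, and the log2 fold change was -0.61 with a 95% confidence interval of -1.42 to 0.20 (limma adjusted p = 0.225). None of the 3 receptors was called in any of 22 alternatives. Each changed sign in at least 1 of them, Egfr in 3, Erbb2 in 6 and Erbb3 in 1. A p that misses the threshold does not show equal levels, and the intervals give the differences that remain possible.

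Of the 87 measured genes in 6 lists around the receptor, 17 were higher and 6 lower in tumors (19.5% and 6.9%, beside 10.3% and 15.6% of all features). Of the 17, 12 came from the list of ERK target and feedback genes, and each other list held at most 2. The lists were chosen with earlier results of these data known. Among the other ligands and receptors of the family, 3 of 5 genes were measured. Nrg1, a neuregulin that binds ErbB3 and ErbB4, had a log2 signal of 3.34, 4.73 and 3.02 in the tumors, against -1.06, -1.33 and -2.29 in healthy skin (38.3-fold higher, log2 fold change 5.26 ± 0.53 SE, limma adjusted p = 0.00107). Nrg4, a neuregulin that binds ErbB4, had -4.07, -3.92 and -3.12 in the tumors, against -0.16, 0.17 and 0.66 in healthy skin (15.2-fold lower, log2 fold change -3.93 ± 0.37 SE, limma adjusted p = 0.000878), and was well above background on 2 of 3 tumor arrays. Both passed the test in all alternatives that kept them. The other measured gene of this list did not pass the test (limma adjusted p = 0.518). Nrg3 and the receptor Erbb4 were not well above background on any array, so no difference could be measured for them.

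Among 12 genes of ligand shedding and trafficking, 1 rose and 1 fell (8.3% each, beside 10.3% and 15.6% of all features). Adam8, a metalloprotease of leukocytes and activated epithelia, had a log2 signal of 5.88, 5.95 and 5.70 in the tumors, against 1.90, 1.92 and 1.76 in healthy skin, or 15.8-fold higher (limma adjusted p = 0.000294). Timp3, an inhibitor of metalloproteases including ADAM17, had 0.64, 1.32 and 1.84 in the tumors, against 4.30, 4.51 and 4.80 in healthy skin, or 9.64-fold lower (limma adjusted p = 0.00151). For both the groups were separated by more than the spread within either. The other 10 genes of this list did not pass the test.

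Among 15 genes that restrain or recycle the receptor, 2 rose and 2 fell (13.3% each, beside 10.3% and 15.6% of all features). Lrig3, a transmembrane relative of the ErbB inhibitor Lrig1, had a log2 signal of -0.04, 1.63 and 1.53 in the tumors, against 3.73, 3.98 and 4.74 in healthy skin, or 8.66-fold lower (limma adjusted p = 0.00615). Usp8, a deubiquitinase of endosomes, was 3.29-fold lower (limma adjusted p = 0.00433). With spike-in scaling neither fall was called (log2 fold change -2.22 for Lrig3 and -0.83 for Usp8), and that of Usp8 was also lost with treat. The 2 that rose, named after their values were seen, were Cblc, a ubiquitin ligase of epithelia (3.07-fold, limma adjusted p = 0.0277), and Sh3kbp1, a Cbl-binding adaptor (2.4-fold, limma adjusted p = 0.0281). Neither was called without healthy skin 1, healthy skin 2 or tumor 2, without a detection filter or with treat, and 1 of this list was called higher without tumor 1 or tumor 3. Among 20 adaptors and kinases from the receptor to ERK, 5% were higher and 0% lower, beside 10.3% and 15.6% of all features. Only Map2k1, the kinase MEK1, passed the test (6.07-fold higher, limma adjusted p = 0.0216). Its healthy skin values, 1.37, 1.27 and -0.98, lay apart. Without healthy skin 3 its log2 fold change was 1.84 in place of 2.60 (adjusted p = 0.00823), and the call was lost without tumor 1 or tumor 2 (adjusted p = 0.0641 and 0.0546).

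ERK target and feedback genes were, of the 6 lists, the one with the largest share called higher in tumors. There 12 of 21 were higher and 0 lower (57.1% and 0%, beside 10.3% and 15.6% of all features), with a median log2 fold change of 1.71. Plaur, the urokinase receptor, had a log2 signal of 2.21, 2.74 and 3.11 in the tumors, against -2.00, -2.50 and -1.56 in healthy skin, or 26.1-fold higher (limma adjusted p = 0.000538). Dusp4, an ERK phosphatase, had 1.80, 1.13 and 1.43 in the tumors, against -3.10, -3.57 and -2.93 in healthy skin, or 25.2-fold higher (limma adjusted p = 0.000347). The number of genes called higher in this list was 8 to 12 when 1 array was left out, with 8 without tumor 1, and 5 against a log2 fold change of 1. Of 16 genes of the PI3K, PLC and STAT arms, none rose and 2 fell (0% and 12.5%, beside 10.3% and 15.6% of all features). The 2 were Pik3r1, a regulatory subunit of PI3K (2.64-fold lower, limma adjusted p = 0.0153), and Stat5a, a transcription factor (3.54-fold lower, limma adjusted p = 0.0236). The Pik3r1 call was lost without tumor 2 and the Stat5a call without healthy skin 3 or tumor 1. Both calls were also lost with spike-in scaling and with treat, and the Stat5a call with median scaling and without a detection filter.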

How the data were processed

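Intensity values (processed, mean, median and background signals, with spot flags) were deposited as Feature Extraction wrote them, background already subtracted in the processed signal, per the file headers. A deposited series table gives log2 values ranked exactly as the median signal of each array. The submitters' processing notes name limma, and the centring of that table is not given in the sources used here. Signals were log2 transformed, less each array's 75th percentile over 59305 spots. Outlier spots were left out, spots of 1 probe averaged, only the 34283 probes that cleared background on 3 or more of the 6 arrays were used, and each gene was read from its brightest probe. All 10 members were named by RefSeq accession. Of all 55681 probes, 26582 were named by accession, 2602 by symbol and 492 by synonym, and the others kept the array's name. The comparison used lmFit and eBayes (two-sided) of limma 3.58.1 under R 4.3.3, and exact permutation tests used scipy 1.17.1. Members and lists were chosen with earlier results of these data known. Besides members, the text names the 2 largest called genes per list whose groups do not overlap, genes against a list's majority, and the 3 closest patterns to the called member with the smallest adjusted p in each direction. Mthfd2l is named as the neighbour of Epgn, and further genes of the ERK target and feedback list were named after their values were seen. Alternatives covered scaling (quantile, median, spike-in), normexp with an offset of 50, the deposited values, detection filters, probe choice, variance trend, array weights, blocks, treat and left-out arrays. Replicate numbers follow accession order, and titles and descriptions number the biopsies differently, so they only name samples. Deviations from the group means correlated at 0.10, 0.13 and -0.08 between arrays of the same number. Since the numbering is arbitrary, this cannot show whether biopsies were paired. The number of arrays limits the precision.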

Additional observations from a re-analysis of the deposited data

How the results depend on the processing

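The number of members called higher was 4 in every alternative, while the number called lower was 1 in place of 2 with the authors' deposited values, median scaling, quantile scaling, no detection filter, treat, the slide row as a block, slide row 2 alone, probes well above background on all 6 arrays (where Egf was left out) and without healthy skin 3 and tumor 1 together, and 0 with spike-in scaling. Without single arrays it was 1 to 2. Apart from the filter on all 6 arrays and spike-in scaling, the lost call was that of Btc. Over all features the median log2 fold change was -0.16, and it became 0.21 under median and 0.73 under spike-in scaling, so small differences depend on the scaling. The Egfr log2 fold change turned to 0.24 as the mean of its probes, 0.011 under median scaling and 0.53 under spike-in scaling. That of Erbb2 turned to 0.26 with median scaling, 0.79 with spike-in scaling, 0.31 with the slide row as a block or slide row 2 alone, and was between -0.31 and 0.038 without single arrays. That of Erbb3 turned to 0.28 with spike-in scaling. The cause of these moves was not tested. Slide row 1, as inferred from the barcode suffix, held no tumor, so both row settings compare healthy skin 3 by itself with the tumors. Over all features, 6420 were called (2553 higher, 3867 lower). The number was 9857 (4229 higher) with array weights, 3920 (1476 higher, 2444 lower) without a detection filter, 2686 (782 lower) with spike-in scaling and 1666 (570 higher, 1096 lower) with treat. With median scaling 4389 were higher, and 2399 were lower under the filter on all 6 arrays. Higher features made up 39.8% of those called, 62.9% under median and 70.9% under spike-in scaling. Without single arrays the number called was 3840 to 5458, with 1375 to 2222 higher and 2465 to 3236 lower; the 2 lowest numbers called were 3840 without tumor 2 and 4059 without healthy skin 2. The replicate number as a block left 4 members higher and 2 lower and called 5470 features. Signals near background limit the size of the fall of Egf and Nrg4 and, on healthy skin 3, that of the rise of Tgfa.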
